A study of Bos taurus with 6 samples.

Results

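The hypoxia response genes described here are HIF1A, EPAS1, EGLN3, VEGFA, ADM, SLC2A1, CA9, BNIP3, NDRG1 and KDM3A, which make up 10 of the 17663 genes in the expression table of bovine fetal fibroblasts (bEFs). They were picked by gene symbol at a time when the FPKM values and counts of these libraries were already known. Their differences between groups are therefore given as a description. Test calls of members in the fits of all genes are listed further on, but nothing is read from them. Poly(A) RNA was sequenced from primary cultures of 3 fat-1 transgenic cattle fetuses (FT cells) and 3 wild-type Luxi cattle fetuses (WT cells). All fetuses were 50 to 60 days old, and the cultures were started from trunk tissue without viscera or bone. The fat-1 gene comes from a nematode and encodes a desaturase that turns n-6 polyunsaturated fatty acids into n-3 ones. The promoter of the transgene, the breed of the FT fetuses and the oxygen level of the cultures were not given in the sources used here, and oxygen was not a variable of the design. The comparison of FT with WT addresses how the RNA of oxygen-responsive genes differed between the genotypes, with n = 3 fetuses in each group.

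The libraries held 63366834, 48167642 and 54204446 counts in FT_1, FT_2 and FT_3. WT_1, WT_2 and WT_3 held 69777641, 51310741 and 54271927 counts. Levels are given as FPKM, a fragment count scaled to gene length and library depth. A log2 fold change is FT over WT from the edgeR quasi-likelihood fit of the counts of 13482 genes, and SE is its standard error. A gene was said to pass when its Benjamini-Hochberg adjusted p over those genes was under 0.05. Scaling by library totals in place of TMM factors moved the median log2 fold change of all genes from 0.03 to -0.12, and it was -0.12 in limma on log2(FPKM + 1), so some values under those settings are also given relative to that median. Coordinates are those of the deposited table, for which no bovine build was named. The processing notes list the mouse build mm8, whereas the gene identifiers are bovine Ensembl ones.

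The fibroblast label was checked against marker genes. The protocol of these libraries also speaks of an adipose type, for which no marker list was used. All 12 fibroblast markers, among them COL1A1, VIM, PDGFRA and DCN, were present in every library, and none was listed at 0. Of these 3 passed as higher in FT, and without FT_1 7 did and 1 passed as lower. Their summed FPKM was 14461.5, 19001.8 and 18794.5 in FT_1, FT_2 and FT_3. In WT_1, WT_2 and WT_3 it was 18211.3, 17614.2 and 17771.1, so that FT_1 had the lowest sum. VIM was the most abundant marker in FT_3 and the WT libraries, DCN in FT_2 and FN1 in FT_1. VIM was at 1243.94, 3850.19 and 4170.95 FPKM in FT_1, FT_2 and FT_3 and at 7890.61, 8177.52 and 7311.82 in WT_1, WT_2 and WT_3, lower in FT without overlap. FN1 alone was at 7499.22 FPKM in FT_1. Without FN1 the sum was 6962.27, 17222.1 and 16964 in FT_1, FT_2 and FT_3 and 17927, 17375.1 and 17466.9 in WT_1, WT_2 and WT_3.

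FT_1 stood apart from the other libraries. Between FT_1 and FT_2, 22.3% of the genes tested differed more than 2-fold in CPM, the count scaled to library depth, and between FT_1 and FT_3 22.8% did. The share was 4.87% between FT_2 and FT_3, and 3.96% to 4.96% between pairs of WT libraries. Across the groups it was 24.4% to 27.7% for FT_2 or FT_3 with a WT library, and 31.4% to 33.3% for FT_1 with a WT library. Epithelial markers also set FT_1 apart: their summed FPKM was 457.45, 16.23 and 15.76 in FT_1, FT_2 and FT_3, and 10.35, 8.05 and 14.21 in WT_1, WT_2 and WT_3. FT_1 was highest for 8 of the 9 genes on that list. The remaining gene, CLDN4, was at 3.65, 3.39 and 3.82 FPKM in FT_1, FT_2 and FT_3 and at 0.20, 0.09 and 0.33 in WT_1, WT_2 and WT_3, and was the only one to pass with all 6 libraries. Without FT_1, 5 of the list passed, all higher in FT (KRT5, KRT8, KRT14, KRT18 and CLDN4). Leaving out FT_1 therefore did not remove the difference in these 5 genes, but the keratin levels that remained were low. In FT_2 and FT_3, KRT8 was at 0.95 and 0.61 FPKM, KRT14 at 1.76 and 1.11 and KRT18 at 0.34 and 0.18. In FT_1 these keratins were at 84.14, 128.14 and 11.18 FPKM. CDH1 and ESRP1 went the other way without FT_1, at log2 fold changes of -0.28 and -1.72, and did not pass. EPCAM and KRT19 were not tested. The most abundant gene of the list in FT_2, FT_3 and WT was CDH1, at 7.11 to 13.86 FPKM. In FT_1 it was the basal keratin KRT5, which was at 171.54 FPKM in FT_1, at 2.57 in FT_2 and at 1.63 in FT_3, and was listed at 0 in all 3 WT libraries, as were KRT8, KRT14, KRT18 and EPCAM. Mesothelial markers, of which 4 of 6 were in the table, summed to 201.2, 45.03 and 46.27 in FT_1, FT_2 and FT_3 and to 2.34, 3.51 and 3.38 in WT_1, WT_2 and WT_3. Almost all of that sum came from MSLN, and WT1 was listed at 0 in the FT libraries and at 0.05 FPKM or less in the WT libraries. UPK3B was at 1.03, 0.10 and 0.09 FPKM in FT_1, FT_2 and FT_3 and at 0.20 to 0.25 in WT. BNC1 was at 1.52 FPKM in FT_1, at 0 in FT_2 and FT_3 and at 0.04 or less in WT. The lists for endothelial, haematopoietic, skeletal muscle and neural cells summed to at most 7.75 FPKM in any library. Of their 10 genes tested, 1 passed as higher and 2 as lower in FT, and 1 and 6 did so without FT_1. The higher one was the muscle intermediate filament gene DES, at 5.74, 4.01 and 3.17 FPKM in FT_1, FT_2 and FT_3 and at 0.07, 0 and 0 in WT_1, WT_2 and WT_3, while MYH3 of the same list passed as lower at 0.12 FPKM or less in every library. DES had a log2 fold change of 7.44 (7.12 without FT_1 and 2.35 in limma on log2(FPKM + 1)). Its counts were 12, 0 and 0 in WT_1, WT_2 and WT_3. The fold changes, counts of genes passed and list medians below are given with and without FT_1, and the part of these marker genes in the results was not tested. In bulk RNA, fewer cells of a type and less RNA per cell cannot be told apart.

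**Figure D1:**
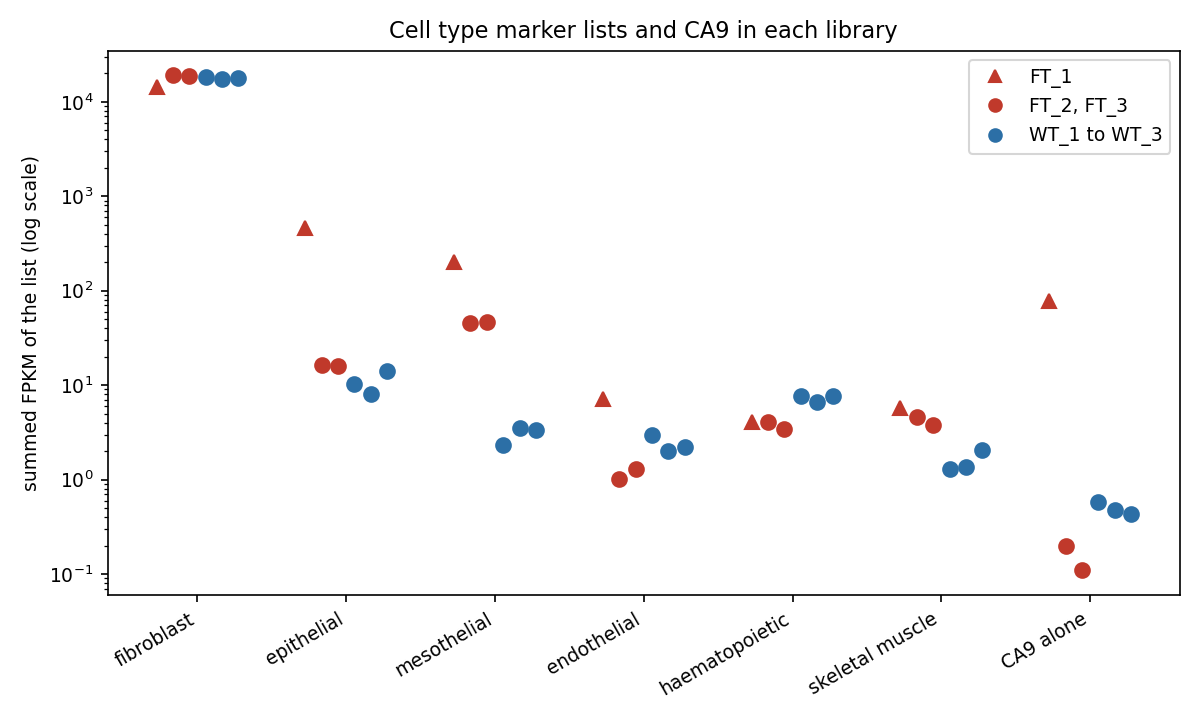
Summed FPKM (log scale) of 6 cell type marker lists, and the FPKM of CA9 alone, in each of the 6 libraries; triangles mark FT_1 and circles the other libraries. The epithelial sum was 457.45 in FT_1 and between 8.05 and 16.23 in the other libraries, and CA9 was at 76.92 in FT_1 and between 0.11 and 0.58 elsewhere.

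Cells respond to low oxygen through hypoxia-inducible factors (HIFs), in which an oxygen-regulated alpha subunit pairs with the stable partner ARNT. When oxygen is present, prolyl hydroxylases of the EGLN family mark the alpha subunits for capture by the VHL ubiquitin ligase and for destruction. When it is scarce, the alpha subunits persist and switch on genes for glucose uptake, glycolysis, pH control, blood vessel growth, collagen modification and the removal of mitochondria. Much of this control acts on protein, which RNA levels do not show.

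HIF1A, the alpha subunit that drives most glycolytic targets, was at chr10:73836334-73881299. Its level was 201.85, 49.84 and 54.39 FPKM in FT_1, FT_2 and FT_3, beside 60.31, 57.48 and 57.86 in WT_1, WT_2 and WT_3. FT_1 was the highest of the 6 libraries, whereas FT_2 and FT_3 were below every WT library. FT over WT, the log2 fold change was 0.95 (SE 0.55) with all 6 libraries and 0.00 (SE 0.07) without FT_1; with all libraries it was 0.48 in limma on log2(FPKM + 1), 0.60 above the median of all genes.

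EPAS1, which encodes the HIF-2 alpha subunit, was at chr11:28734999-28828070. It was at 176.51, 92.70 and 103.95 FPKM in FT_1, FT_2 and FT_3 and at 63.70, 51.74 and 64.03 in WT_1, WT_2 and WT_3. All FT libraries were above all WT libraries, with FT_1 the highest. This gave a log2 fold change of 1.21 (SE 0.26), and 0.89 (SE 0.10) without FT_1. The balance of the alpha subunits therefore differed by library: HIF1A FPKM over EPAS1 FPKM was 1.14, 0.538 and 0.523 in FT_1, FT_2 and FT_3, and 0.947, 1.11 and 0.904 in WT_1, WT_2 and WT_3. FT_2 and FT_3 had the lowest ratios, and FT_1 had the highest, close to WT_2. HIF3A, the remaining alpha subunit, was at 0.03 FPKM or less in every library.

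EGLN3, an oxygen-dependent prolyl hydroxylase and itself a HIF target, was at chr21:44387137-44416154. Levels were 44.96, 21.20 and 23.87 FPKM in FT_1, FT_2 and FT_3, and 32.91, 31.45 and 33.27 in WT_1, WT_2 and WT_3. The WT libraries lay between FT_1 and the remaining FT libraries. The log2 fold change was 0.04 (SE 0.28), and -0.11 when libraries were scaled by their totals, in both cases within 0.01 of the median of all genes; it was -0.19 in limma on FPKM, 0.07 below that median, and -0.36 (SE 0.08) without FT_1. Within the EGLN family, EGLN3 made up 47.8% of the FPKM in FT_1, 34.6% in FT_2 and 39.2% in FT_3, beside 48.7%, 47.1% and 50.8% in WT_1, WT_2 and WT_3.

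KDM3A, a histone H3 lysine demethylase that uses oxygen, was at chr11:48378513-48434868. It was at 16.04, 14.52 and 14.26 FPKM in FT_1, FT_2 and FT_3 and at 15.94, 15.52 and 15.88 in WT_1, WT_2 and WT_3. The groups overlapped only through FT_1, which was the highest of all. The log2 fold change was 0.08 (SE 0.07), or 0.04 (SE 0.06) without FT_1, and its sign was negative with scaling by library totals (-0.07) and in limma on FPKM (-0.08). With all libraries KDM3A was 0.05 above the median of all genes with TMM, with library totals and in limma on log2(FPKM + 1), but 0.05 below it in limma without a filter, and with a gene length offset it was -0.08, which was 0.12 below it.

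NDRG1, a stress-responsive gene linked to growth arrest and differentiation, was at chr14:8073208-8129604. Its level was 125.68, 123.62 and 129.08 FPKM in FT_1, FT_2 and FT_3 and 158.12, 161.14 and 153.51 in WT_1, WT_2 and WT_3. Here FT_1 lay between FT_2 and FT_3, and all FT libraries were below all WT libraries. On the log2 scale the fold change was -0.16 (SE 0.08), and -0.15 (SE 0.06) without FT_1. With scaling by library totals it was -0.31, and it was 0.20 below the median of all genes in both settings.

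**Figure D2:**
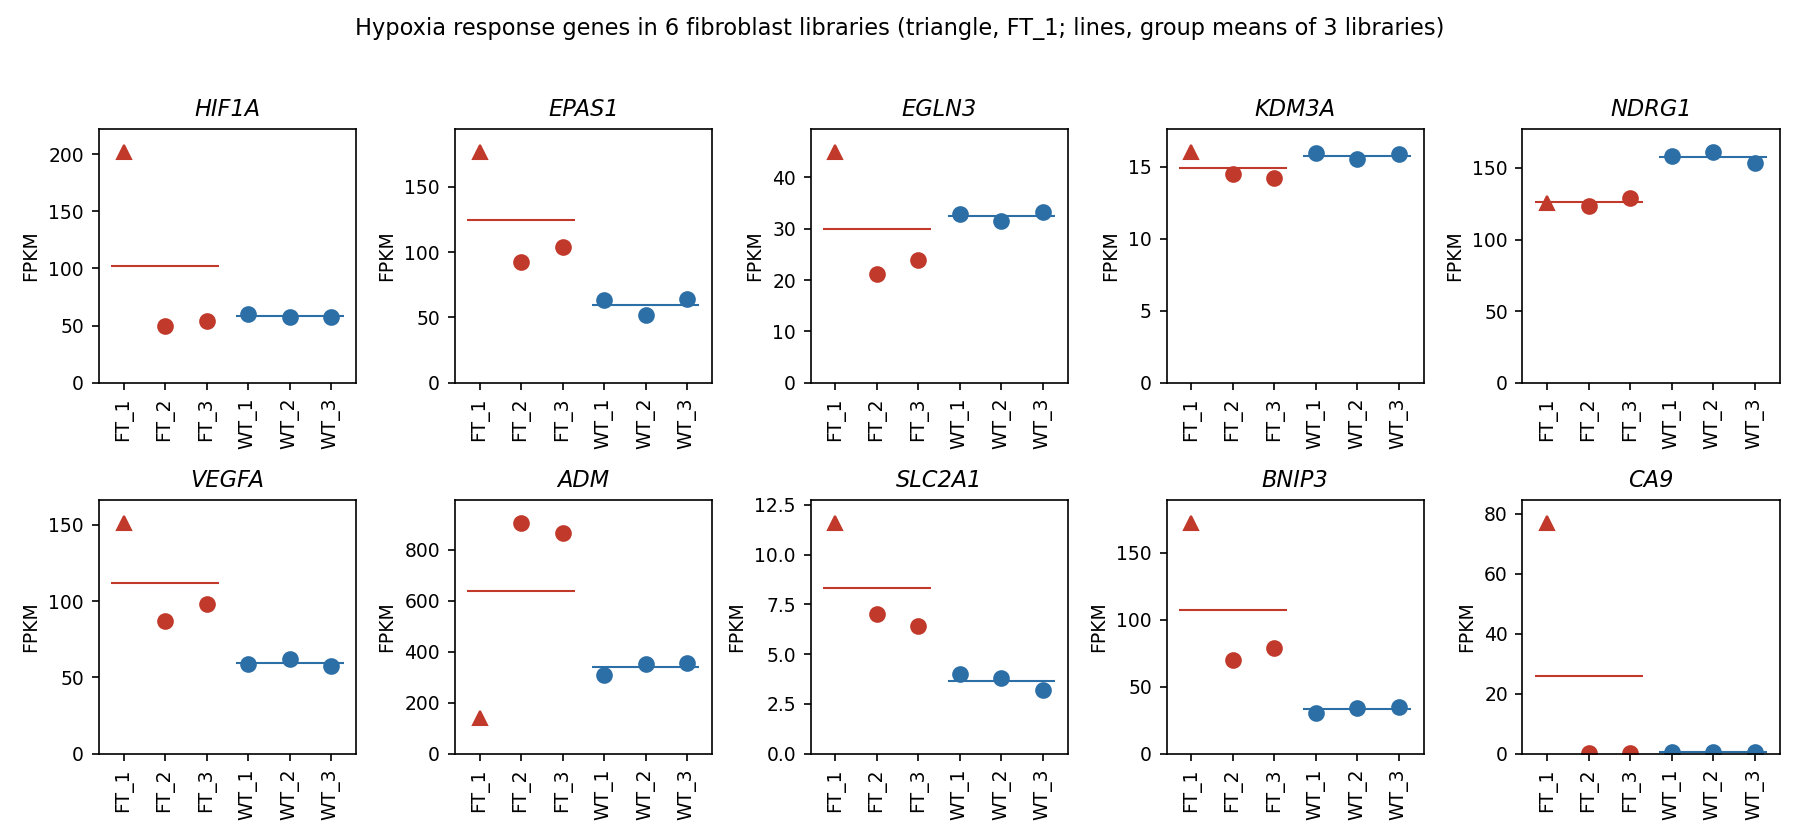
FPKM of each of the 10 hypoxia response genes in the 6 libraries, on linear axes from 0; red marks FT, blue marks WT, the triangle is FT_1 and lines are group means (n = 3). FT_1 was the highest library for 8 of the genes and the lowest for ADM, where FT_2 (906.06) and FT_3 (866.87) were above all WT libraries.

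VEGFA, the main growth factor for blood vessels, was at chr23:17281915-17297193. It was at 151.27, 86.80 and 97.92 FPKM in FT_1, FT_2 and FT_3, and at 58.73, 61.99 and 57.18 in WT_1, WT_2 and WT_3. Every FT library was above every WT library. This gave a log2 fold change of 1.07 (SE 0.21), and 0.81 (SE 0.07) without FT_1. VEGFA made up 65.0% of the summed FPKM of VEGFA, VEGFB, VEGFC and PGF in FT_1, and between 51.8% and 54.9% in the other 5 libraries.

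ADM, which encodes the vasodilator peptide adrenomedullin, was at chr15:42377564-42380500 and was the most abundant member in all libraries but FT_1. Levels were 140.85, 906.06 and 866.87 FPKM in FT_1, FT_2 and FT_3, and 306.98, 353.61 and 357.05 in WT_1, WT_2 and WT_3. FT_1 was the lowest library and FT_2 and FT_3 the highest, so that the WT libraries lay in between. The log2 fold change was 1.08 (SE 0.65), 0.50 in limma on log2(FPKM + 1), 0.63 above the median of all genes, and 1.56 (SE 0.08) without FT_1.

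SLC2A1, the basal glucose transporter GLUT1, was at chr3:103309039-103337423. It was at 11.60, 7.02 and 6.39 FPKM in FT_1, FT_2 and FT_3, and at 3.99, 3.80 and 3.21 in WT_1, WT_2 and WT_3. The groups did not overlap. This gave a log2 fold change of 1.34 (SE 0.24), and 1.04 (SE 0.12) without FT_1. Among 8 SLC2A genes measured here, which include the inositol transporter SLC2A13, SLC2A1 took 13.1%, 13.0% and 12.1% of the FPKM in FT_1, FT_2 and FT_3 and 6.74%, 6.87% and 5.04% in WT_1, WT_2 and WT_3, while SLC2A3 took between 56.6% and 72.3%.

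BNIP3, a mitochondrial outer membrane protein that recruits mitochondria to autophagy, was at chr26:51221616-51226873. Levels were 172.40, 70.13 and 78.96 FPKM in FT_1, FT_2 and FT_3, and 30.60, 33.73 and 34.95 in WT_1, WT_2 and WT_3. The lowest FT library was above the highest WT library. On the log2 scale the fold change was 1.85 (SE 0.35), and 1.34 (SE 0.10) without FT_1. BNIP3 FPKM over that of its homologue BNIP3L was 1.44, 0.634 and 0.690 in FT_1, FT_2 and FT_3 and 0.325, 0.398 and 0.413 in WT_1, WT_2 and WT_3, so BNIP3 exceeded BNIP3L in FT_1 alone.

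CA9, a membrane carbonic anhydrase that helps cells export acid, was at chr8:59849175-59855369. It was at 76.92, 0.20 and 0.11 FPKM in FT_1, FT_2 and FT_3, and at 0.58, 0.48 and 0.43 in WT_1, WT_2 and WT_3. These levels rested on 7999, 17 and 10 counts in the FT libraries and on 67, 40 and 38 in the WT libraries. FT_1 was 496 times the mean of FT_2 and FT_3, both of which were below all WT libraries. The log2 fold change was 5.82 (SE 2.46) with all 6 libraries and -1.44 (SE 0.53) without FT_1, so its sign depended on that library. With all 6 libraries it was 1.65 in limma on log2(FPKM + 1) and 1.51 with a pseudocount of 0.1. CA9 was 48.9% of the summed FPKM of 8 carbonic anhydrases in FT_1, where CA2 was 32.4%, and at most 1.83% in each of the other libraries, where CA2 was at least 79.6%. In FT_1 the high CA9 level stood beside the epithelial sum of 457.45 FPKM, and the part of those markers in it was not tested.

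**Figure D3:**
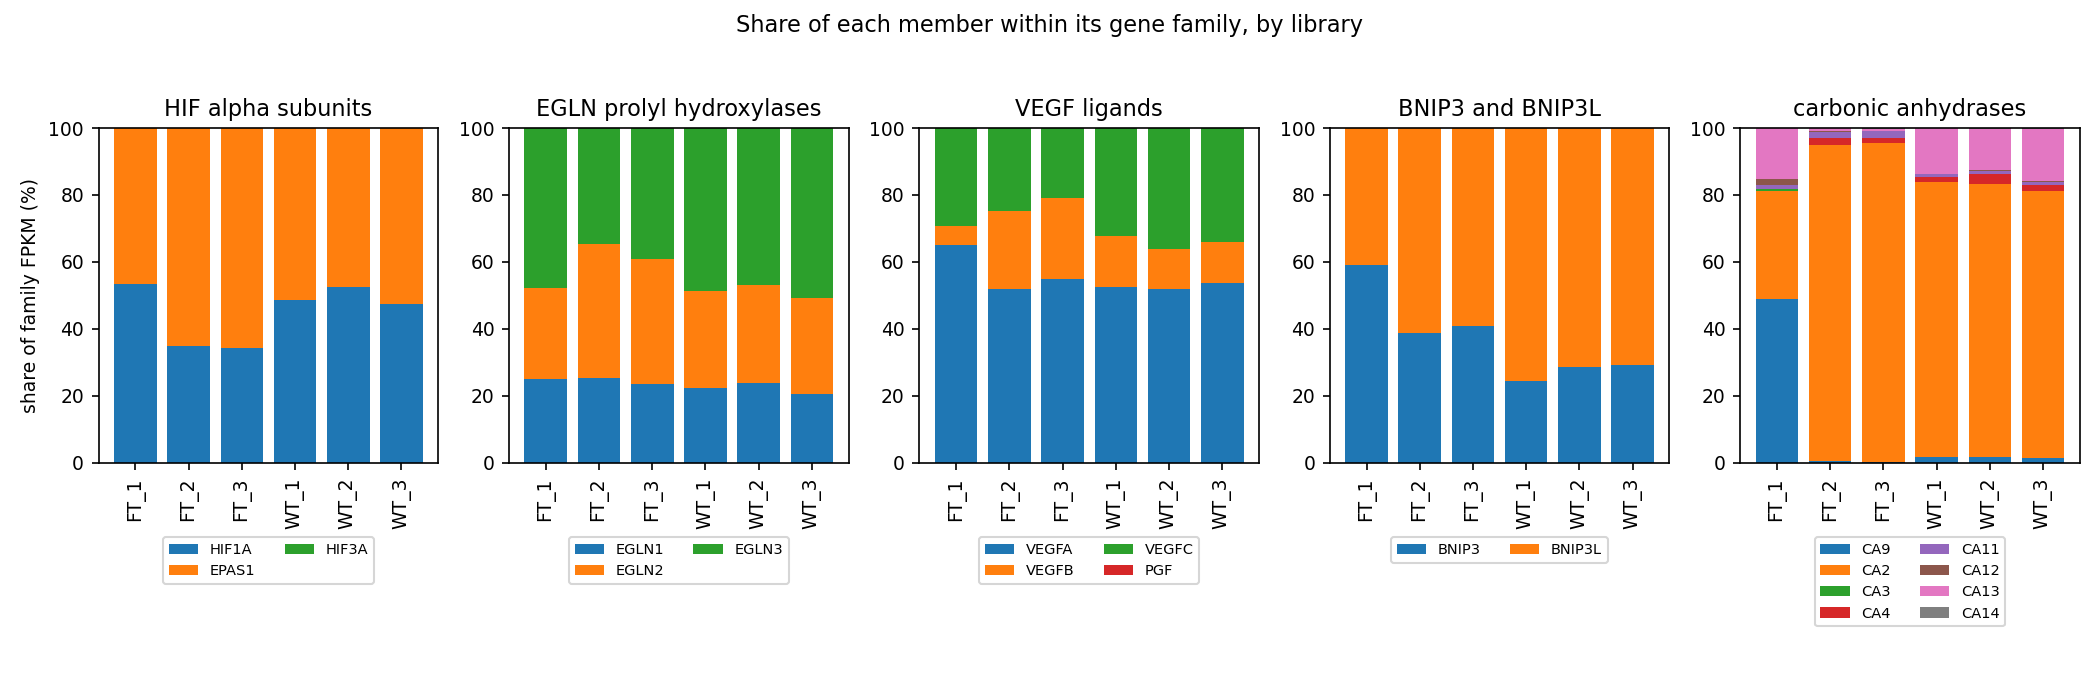
Share (%) of the summed FPKM of a gene family held by each gene, for 5 families in the 6 libraries. EPAS1 held 65.0% and 65.6% of the HIF alpha FPKM in FT_2 and FT_3 and between 46.6% and 52.5% in the other libraries, and CA9 held 48.9% of the carbonic anhydrase FPKM in FT_1.

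Considered side by side, EPAS1, VEGFA, SLC2A1 and BNIP3 were without overlap and higher in FT, NDRG1 was without overlap and lower, and the other 5 members overlapped. Over all genes tested, 21.8% were without overlap and higher in FT, and 36.9% were without overlap and lower. FT_1 was the highest library for 8 members, against 27.1% of all genes, and the lowest for 1, against 29.1%. In the fit of all genes 4 of the 10 members passed, all higher in FT, where 39% of all genes passed, 20.1% higher and 18.9% lower in FT. With library totals or limma on log2(FPKM + 1) 5 passed, as NDRG1 was added as lower, beside 40.4% and 44.2% of all genes. EPAS1 no longer passed when WT_1 or WT_2 was left out, which made the number 3, beside 22.1% and 23% of all genes. Without FT_1, 7 members passed, 5 higher with ADM added and 2 lower (CA9 and EGLN3), beside 62.1% of all genes. The members had been named with this contrast known, so nothing is read from these counts. Their median log2 fold change was 1.08, and 0.42 without FT_1, beside 0.03 and -0.02 for all genes.

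**Figure D4:**
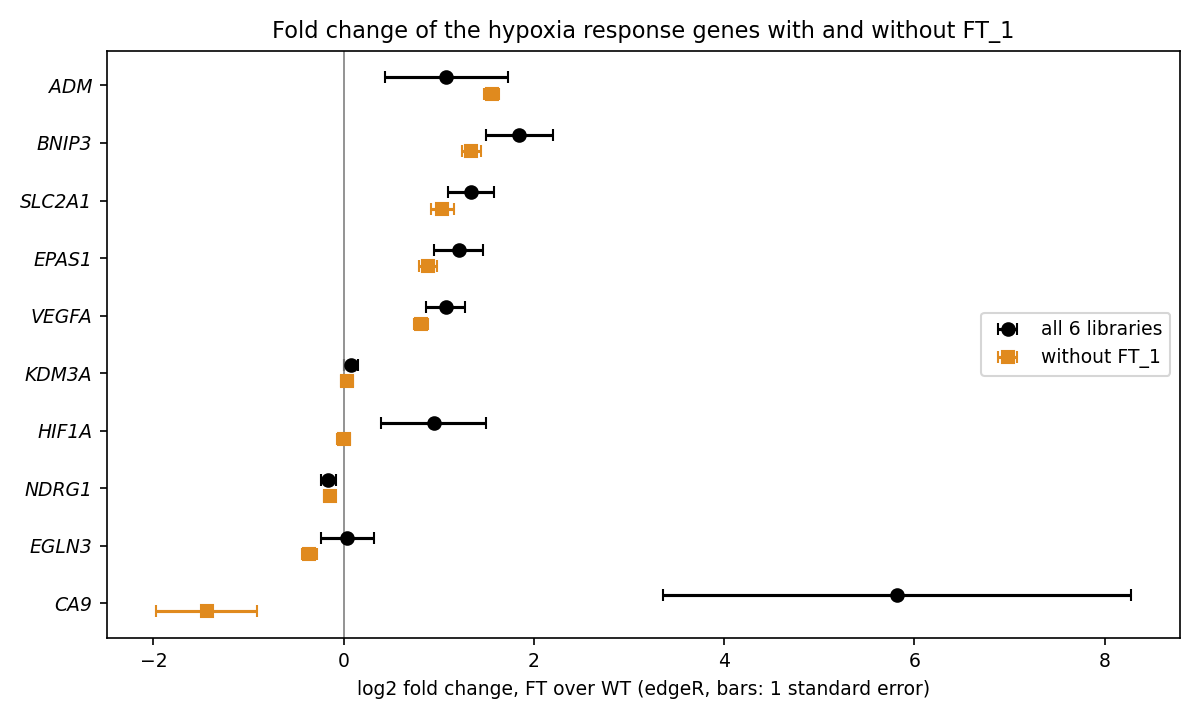
Log2 fold change (FT over WT, edgeR) of each member with all 6 libraries (black circles) and without FT_1 (orange squares); bars are 1 SE. HIF1A moved from 0.95 to 0.00, EGLN3 from 0.04 to -0.36 (-0.11 by library totals with all 6) and CA9 from 5.82 to -1.44 when FT_1 was left out, while EPAS1, VEGFA, SLC2A1, BNIP3 and ADM stayed above 0.8; KDM3A was at 0.08 and 0.04 (-0.07 by library totals with all 6).

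By a rule of likeness, HIF1A and EPAS1 were set beside the genes with the nearest centred log2 CPM over the 6 libraries. Nearest to HIF1A were PHACTR2, SOD2, the mitochondrial superoxide dismutase, and STK38L, at root mean square differences of 0.0464, 0.0510 and 0.0892. PHACTR2 was low, at 1.88 FPKM in FT_1 and at 0.45 to 0.52 in the other libraries. SOD2 was at 72.58, 16.67 and 17.99 FPKM in FT_1, FT_2 and FT_3 and at 21.55, 18.96 and 19.48 in WT_1, WT_2 and WT_3, with FT_1 the highest. Nearest to EPAS1 were RHOBTB1, the transcriptional repressor ETV6 and SUSD6, at 0.0552, 0.0568 and 0.0659. ETV6 was at 17.51, 9.70 and 11.20 FPKM in FT_1, FT_2 and FT_3 and at 6.53, 5.52 and 6.17 in WT_1, WT_2 and WT_3, without overlap. These are the smallest differences among all 13482 genes, and FT_1 was the highest library for 27.1% of all genes. Shared regulation was not tested.

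Of all 13482 genes tested, 2714 were higher and 2547 lower in FT, together 39%. Without FT_1 the numbers were 4215 and 4337 of 13765 genes (62.1%), without WT_1 1516 and 1531 (22.1%), without WT_2 1613 and 1570 (23%), and without WT_3 1796 and 1741 (25.5%). Scaling by library totals moved the split to 2049 higher and 3394 lower, and limma on log2(FPKM + 1) gave 1837 higher and 3573 lower.

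The machinery of oxygen sensing was measured through 15 genes, of which 14 were tested. In FT cells 3 rose and 3 fell, and 5 and 4 did so without FT_1. The median log2 fold change was 0.13, and 0.10 without FT_1; it was -0.02 with library totals and -0.03 in limma on log2(FPKM + 1). With all libraries these settings and TMM put it 0.10 above the median of all genes, a length offset 0.26 above and limma without a filter 0.00. The acetyltransferase EP300, a HIF coactivator, was at 14.77, 16.07 and 15.87 FPKM in FT_1, FT_2 and FT_3 and at 8.34, 7.46 and 9.05 in WT_1, WT_2 and WT_3. FT_1 lay with the other FT libraries, and the log2 fold change was 1.07 (SE 0.10, edgeR adjusted p = 0.0012; 1.12 without FT_1). CREBBP, the related coactivator, rose as well (log2 fold change 0.88, SE 0.09, edgeR adjusted p = 0.0016; 0.93 without FT_1), higher in 3 of 3 FT libraries. The prolyl hydroxylase EGLN2 rose with a log2 fold change of 0.49 (SE 0.07, edgeR adjusted p = 0.0041; 0.46 without FT_1), again in 3 of 3. With a gene length offset the log2 fold changes of EP300, CREBBP and EGLN2 were 0.82, 0.60 and 0.52.

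ARNT2, an alternative partner of the alpha subunits, was at 1.28, 1.19 and 1.3 FPKM in FT_1, FT_2 and FT_3 and at 3.52, 3.24 and 3.28 in WT_1, WT_2 and WT_3. It was lower in 3 of 3 FT libraries, with a log2 fold change of -1.25 (SE 0.10, edgeR adjusted p = 0.0009; -1.26 without FT_1). With a gene length offset it was -1.48. CUL2 and RBX1, the scaffold and RING subunits of the VHL ligase, fell with log2 fold changes of -0.40 and -0.31 (edgeR adjusted p = 0.0207 and 0.0277; -0.38 and -0.34 without FT_1). Both passed in 10 of 15 alternative fits; among those with a library left out, they lost the call without FT_2, FT_3, WT_1 or WT_2. ARNT itself was at 20.94, 27.42 and 28.60 FPKM in FT_1, FT_2 and FT_3 and at 23.60, 20.70 and 25.20 in WT_1, WT_2 and WT_3, where FT_1 was within the WT range and FT_2 and FT_3 above it. It did not pass (log2 fold change 0.31, SE 0.15) but passed without FT_1 at 0.44. EGLN1, the chief oxygen sensor of most cells, HIF1AN, which hydroxylates an asparagine of the alpha subunits, and VHL did not pass, at log2 fold changes of 0.42, 0.18 and -0.24 (0.18, 0.15 and -0.20 without FT_1), and overlapped between groups. With a gene length offset VHL was at 0.04, which was 0.01 above the median of all genes.

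Glucose and glycolytic HIF targets were represented by 20 genes tested. SLC16A3 rose, 6 genes fell and 13 did not pass; without FT_1, 4 rose and 13 fell. The median log2 fold change was -0.20, and -0.32 without FT_1. SLC16A3, which exports lactate, was at 9.54, 1.28 and 1.46 FPKM in FT_1, FT_2 and FT_3 and at 0.24, 0.15 and 0.06 in WT_1, WT_2 and WT_3. It was highest in FT_1 and higher in 3 of 3 FT libraries (log2 fold change 4.87, SE 1.06, edgeR adjusted p = 0.0149; 3.30 without FT_1 and 1.76 in limma on log2(FPKM + 1)). The call was lost in limma on log2(FPKM + 1) and when WT_2 or WT_3 was left out. The largest decreases were those of PPP1R3C, a glycogen-targeting phosphatase subunit, ENO2, an enolase, and PGAM1, a phosphoglycerate mutase. PGAM1 was at 292.37, 218.40 and 222.19 FPKM in FT_1, FT_2 and FT_3 and at 580.38, 654.45 and 555.65 in WT_1, WT_2 and WT_3. All FT libraries were below all WT libraries for these 3 genes. Their log2 fold changes were -1.46, -1.14 and -1.13 (edgeR adjusted p = 0.0008, 0.0025 and 0.0025; -1.38, -1.23 and -1.27 without FT_1), and each passed in 15 of 15 alternative fits.

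Among secreted and vascular HIF targets 10 genes were tested, of which 2 rose and 1 fell. The adipokine gene LEP was at 0.03, 4.91 and 4.45 FPKM in FT_1, FT_2 and FT_3 and at 0.09, 0.07 and 0.02 in WT_1, WT_2 and WT_3. FT_2 and FT_3 were high, while FT_1 was as low as WT; it passed at a log2 fold change of 5.75 (SE 1.68, edgeR adjusted p = 0.0390; 6.30 without FT_1 and 1.60 in limma on log2(FPKM + 1)). STC2, a stanniocalcin, was at 36.83, 1.96 and 2.65 FPKM in FT_1, FT_2 and FT_3 and at 0.86, 0.62 and 1.22 in WT_1, WT_2 and WT_3. It was higher in 3 of 3 FT libraries and mostly so in FT_1 (log2 fold change 4.07, SE 1.27, edgeR adjusted p = 0.0475; 1.53 without FT_1 and 1.98 in limma on log2(FPKM + 1)). The chemokine CXCL12 fell, at 11.40, 26.85 and 24.03 FPKM in FT_1, FT_2 and FT_3 and 52.13, 55.28 and 48.63 in WT_1, WT_2 and WT_3. Its log2 fold change was -1.16 (SE 0.32, edgeR adjusted p = 0.0333; -0.86 without FT_1), and it was lower in 3 of 3 FT libraries. These calls depended on single libraries and on the test. With FT_1 left out edgeR passed 7 genes of the list, 2 higher and 5 lower in FT, and with FT_3 left out it passed 1. Without WT_1, WT_2 or WT_3 edgeR passed 0 of 12 tested, of which 2, 2 and 1 had an unadjusted p under 0.05; with all libraries DESeq2 passed 3 and limma 1. LEP lost its call when any library but FT_1 was left out, STC2 without any 1 WT library, and CXCL12 without FT_3 or any 1 WT library. LEP also lost it in the 3 limma fits, and STC2 with library totals, in DESeq2, in the 3 limma fits and in edgeR without a filter on low counts. They passed in 6 (LEP), 5 (STC2) and 10 (CXCL12) of 15 alternative fits. The list median was a log2 fold change of 0.25, -0.01 in limma on log2(FPKM + 1), which was 0.12 above the median of all genes there, and -0.35 without FT_1.

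Collagen-modifying HIF targets, the hydroxylases and oxidases that process and crosslink collagen, were 6 genes, all tested. PLOD1, PLOD2, LOX and LOXL2 rose, and P4HA1 and P4HA2 did not pass in edgeR. P4HA2 passed as lower in limma on log2(FPKM + 1) and log2(FPKM + 0.1), which made 4 higher and 1 lower there. Without FT_1, 4 passed as higher and 2 as lower. Over the list the median log2 fold change was 0.63, and 0.58 without FT_1. LOXL2 was at 272.93, 162.29 and 171.55 FPKM in FT_1, FT_2 and FT_3 and at 72.30, 70.54 and 75.15 in WT_1, WT_2 and WT_3. The groups did not overlap (log2 fold change 1.63, SE 0.21, edgeR adjusted p = 0.0026; 1.37 without FT_1). LOX was at 242.50, 344.49 and 359.95 FPKM in FT_1, FT_2 and FT_3 and at 201.73, 173.88 and 206.36 in WT_1, WT_2 and WT_3, with FT_1 the lowest of its group. It was higher in 3 of 3 FT libraries (log2 fold change 0.86, SE 0.18, edgeR adjusted p = 0.0139; 1.03 without FT_1), and lost the call without WT_1 or WT_2. The log2 fold change of the lysyl hydroxylase PLOD2 was 0.93 (SE 0.15, edgeR adjusted p = 0.0060; 0.74 without FT_1), with 3 of 3 FT libraries above WT.

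The mitochondrial, mitophagy and growth-brake HIF targets gave 8 table entries tested, of which 2 rose and 4 fell; without FT_1, 2 rose and 6 fell. Over the list the median log2 fold change was -0.63, -1.31 without FT_1 and -0.93 in limma on log2(FPKM + 1), 0.81 below the median of all genes. That list median was -0.39 without FT_2 and -0.45 without FT_3. BNIP3L, which works with BNIP3 in mitophagy, was at 120.09, 110.57 and 114.43 FPKM in FT_1, FT_2 and FT_3 and at 94.12, 84.84 and 84.71 in WT_1, WT_2 and WT_3. It rose without overlap (log2 fold change 0.55, SE 0.08, edgeR adjusted p = 0.0037; 0.53 without FT_1), as did MXI1, a repressor that opposes MYC (log2 fold change 1.16, SE 0.18, edgeR adjusted p = 0.0047; 0.98 without FT_1). FAM162A, a mitochondrial protein induced by HIF, was at 17.56, 17.09 and 17.40 FPKM in FT_1, FT_2 and FT_3 and at 48.76, 50.09 and 47.50 in WT_1, WT_2 and WT_3. FT_1 lay with FT_2 and FT_3 below all WT libraries (log2 fold change -1.33, SE 0.08, edgeR adjusted p = 0.0005; -1.33 without FT_1). HIGD1A, a small protein of the respiratory chain, had entries on chromosomes 11 and 24 that may share reads, so its log2 fold changes of -1.95 and -1.63 (-2.11 and -2.06 without FT_1) are uncertain. The entry on chromosome 11 passed in 15 of 15 alternative fits; the one on chromosome 24 passed in 8, and lost the call with a length offset and when any 1 library other than FT_1 was left out.

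Of the other HIF targets 15 were tested, of which 4 rose and 3 fell, and 5 and 5 did so without FT_1. The count of 7 passed was 2 without WT_1, 3 without WT_2 and 2 without WT_3. The list median was a log2 fold change of 0.07, and -0.08 with library totals and -0.06 in limma, which was 0.03, 0.04 and 0.06 above the median of all genes, and 0.03 below it in limma without a filter. It was -0.01 with a length offset and -0.05 without FT_1, both 0.04 below that median. The genes named by size were ZNF395, the transferrin receptor TFRC and the hydroxylase JMJD6, which rose with log2 fold changes of 0.85, 0.72 and 0.69 (edgeR adjusted p = 0.0249, 0.0243 and 0.0112; 0.57, 0.53 and 0.69 without FT_1). HMOX1, which breaks down haem, the repressor BHLHE40 and WSB1, a ubiquitin ligase subunit, fell with log2 fold changes of -0.79, -0.69 and -0.52 (edgeR adjusted p = 0.0404, 0.0483 and 0.0121; -0.56, -0.97 and -0.61 without FT_1). All 6 were without overlap between the groups. HMOX1 was at 17.02, 29.22 and 30.37 FPKM in FT_1, FT_2 and FT_3 and at 48.90, 47.96 and 51.26 in WT_1, WT_2 and WT_3. Of these genes, each lost its call when some single libraries were left out: WT_1, WT_2 or WT_3 for ZNF395; FT_3 or any WT library for TFRC; WT_1 for JMJD6; FT_2 or any WT library for HMOX1; any library but FT_1 for BHLHE40; and WT_2 or WT_3 for WSB1. ZNF395 also lost its call with library totals, in the 3 limma fits and with a length offset, TFRC with library totals and in the 3 limma fits, and BHLHE40 without a filter on low counts. Of 15 alternative fits ZNF395 passed in 7, TFRC in 6, JMJD6 in 14, HMOX1 in 10, BHLHE40 in 8 and WSB1 in 12.

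**Figure D5:**
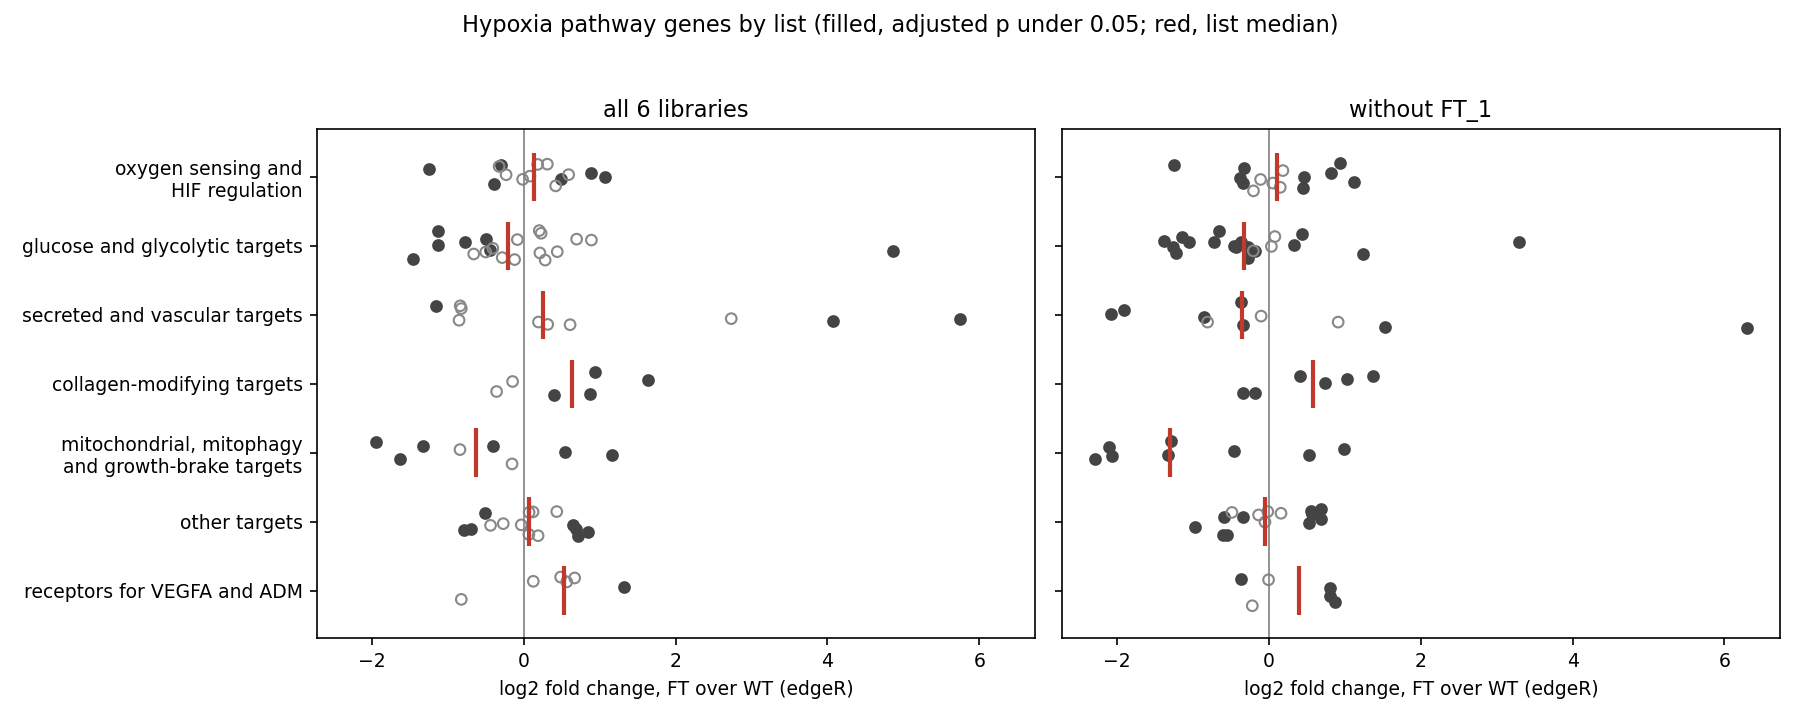
Log2 fold change (FT over WT, edgeR) of the genes tested in 7 lists of the hypoxia pathway with all 6 libraries and without FT_1; filled points passed (adjusted p under 0.05) and red bars are list medians. The glycolytic median was -0.20 and -0.32, the collagen-modifying median 0.63 and 0.58, and the oxygen sensing median 0.13 and 0.10 (-0.02 by library totals with all 6).

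All HIF target lists together, which leave out the 10 members and so VEGFA, ADM, SLC2A1, CA9, BNIP3 and EGLN3, held 59 entries tested, of which 13 rose and 14 fell, a split of 17 and 31 without FT_1. Their median log2 fold change was -0.03 beside 0.03 for all genes, and -0.28 beside -0.02 without FT_1. The share that passed was 45.8% of these entries, beside 39% of all genes, and 81.4% beside 62.1% without FT_1. By list, with all libraries and without FT_1, it was 42.9% and 64.3% for oxygen sensing, 35% and 85% for glycolytic targets, 30% and 70% for secreted and vascular targets, 66.7% and 100% for collagen-modifying targets, 75% and 100% for mitochondrial targets, and 46.7% and 66.7% for other targets. For paralogs of the members it was 33.3% and 66.7%, and for receptors 16.7% and 66.7%. Without FT_1 the list shares are of the entries tested with all 6 libraries, whereas the 62.1% is of the 13765 genes tested without FT_1. The lists were chosen with earlier results of these data known, so nothing is read from these shares.

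Paralogs of the members gave 24 genes tested; 7 rose and 1 fell, and 11 and 5 did so without FT_1. The count of 8 passed was 4 without WT_1, 5 without WT_2 and 5 without WT_3. SLC2A4, the insulin-responsive transporter GLUT4, was at 1.20, 1.68 and 1.02 FPKM in FT_1, FT_2 and FT_3 and at 0.02, 0.09 and 0.06 in WT_1, WT_2 and WT_3. It was higher in 3 of 3 FT libraries (log2 fold change 4.57, SE 0.60, edgeR adjusted p = 0.0029; 4.67 without FT_1 and 1.11 in limma on log2(FPKM + 1)), though low beside SLC2A3 at 30.57 to 63.92 FPKM. The carbonic anhydrase relative CA11 and the cytosolic enzyme CA2 rose, with log2 fold changes of 2.05 and 0.84 (edgeR adjusted p = 0.0189 and 0.0201; 1.44 and 0.60 without FT_1; CA11 was 0.62 in limma on log2(FPKM + 1)). Both lost the call when any WT library was left out, CA11 also in limma on log2(FPKM + 1) and CA2 in limma without a filter; they passed in 9 and 11 of 15 alternative fits. CA2 was at 50.92, 31.51 and 33.37 FPKM in FT_1, FT_2 and FT_3 and at 27.01, 21.38 and 23.70 in WT_1, WT_2 and WT_3. SLC2A13, a transporter of myo-inositol, fell (log2 fold change -0.66, SE 0.13, edgeR adjusted p = 0.0115; -0.62 without FT_1) in 3 of 3 FT libraries. It passed in 13 of 15 alternative fits and, among those with a library left out, lost the call without WT_1. The median log2 fold change of the paralogs was 0.45, 0.22 without FT_1 and 0.21 in limma on log2(FPKM + 1), 0.33 above the median of all genes.

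Receptors for VEGFA and ADM were tested for 6 genes. NRP2, a VEGF and semaphorin co-receptor, was at 66.85, 27.37 and 29.86 FPKM in FT_1, FT_2 and FT_3 and at 19.00, 15.80 and 20.43 in WT_1, WT_2 and WT_3. All FT libraries were above all WT libraries (log2 fold change 1.32, SE 0.36, edgeR adjusted p = 0.0308; 0.81 without FT_1). It alone passed. Without FT_1 edgeR passed 4 genes, 3 higher and 1 lower; without WT_1, WT_2 or WT_3 it passed 0, with 1, 1 and 2 genes at an unadjusted p under 0.05. With all libraries DESeq2 passed 2 and limma passed 0, with 1 gene at an unadjusted p under 0.05. The median log2 fold change was 0.52, 0.40 without FT_1 and 0.24 in limma on log2(FPKM + 1), 0.36 above the median of all genes. FLT1, the VEGFA receptor that also acts as a decoy, was at 0.43, 2.33 and 2.26 FPKM in FT_1, FT_2 and FT_3 and at 3.28, 3.44 and 3.27 in WT_1, WT_2 and WT_3. All FT libraries were below all WT libraries, with FT_1 the lowest. FLT1 did not pass with all 6 libraries (log2 fold change -0.83, SE 0.59) and passed as lower without FT_1, at -0.37. KDR, the main signalling receptor of VEGFA, was at 0.03 FPKM or less in every library and was listed at 0 in the FT libraries. CALCRL, which forms the adrenomedullin receptor with RAMP2, was at 2.22, 3.80 and 3.44 FPKM in FT_1, FT_2 and FT_3 and at 2.03, 2.08 and 2.55 in WT_1, WT_2 and WT_3; RAMP2 was between 4.8 and 9.0 in FT and between 5.64 and 6.92 in WT. Neither passed in edgeR with all 6 libraries. The log2 fold change of CALCRL was 0.67, and 0.88 without FT_1; it passed in DESeq2 and in edgeR without FT_1. That of RAMP2 was 0.12, -0.02 with library totals and -0.07 in limma, which was 0.09, 0.10 and 0.05 above the median of all genes, and -0.22 without FT_1. In limma without a filter RAMP2 was 0.04 below that median.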

How the data were processed

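Poly(A) RNA-seq libraries of 3 FT and 3 WT fetuses were compared. The table the authors deposited gives read counts and FPKM per gene; their notes list HISAT2 2.0, StringTie 1.3.0, Bowtie 0.12.2 and the mouse build mm8. How strands and shared reads were counted is not given in the sources used here. In R 4.3.3, counts were fitted with edgeR 4.0.16 (filterByExpr with a minimum count of 10, TMM, glmQLFit and glmQLFTest, no covariate) over 13482 genes with Benjamini-Hochberg adjustment; SE was the absolute log2 fold change over the square root of F. Alternatives were median-ratio and total scaling, DESeq2 1.42.0, limma 3.58.1 on log2(FPKM + 1) or log2(FPKM + 0.1) with a mean FPKM of at least 0.5 or no filter, edgeR without a filter, a gene length offset, a replicate block, an unadjusted p under 0.05 with an absolute log2 fold change over 1, and leaving out each library. Depth was 48167642 to 69777641 counts. Named genes were the members, up to 3 per direction and list with the largest log2 fold changes among those that passed, oxygen-sensing and receptor genes of defined role, and 3 genes nearest to HIF1A and to EPAS1. Leaving out FT_1 beside each count was chosen after its keratin values were seen. Members and lists were chosen with earlier results of these data known. Marker lists covered fibroblast, epithelial, mesothelial, endothelial, haematopoietic, skeletal muscle and neural cells. PGK1, ANG, EPO, FUNDC1, HILPDA, CA8 and FLT4 were not analysed here.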

Additional observations from a re-analysis of the deposited data

How the results depend on the processing

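The 32 named list entries that passed kept their direction in all 15 alternative fits. They were picked because they passed with all 6 libraries, and the alternatives reuse those libraries. Agreement in direction was therefore likely from the start, and nothing is read from it. Among the members CA9 turned to -1.44 without FT_1, KDM3A to -0.08 with a length offset, and EGLN3 to -0.20 to -0.19 in limma, -0.04 with the block and -0.36 without FT_1. With library totals EGLN3 (-0.11) and KDM3A (-0.07) were below 0, where the median of all genes was -0.12. In limma KDM3A was -0.08, beside a median of all genes of -0.12 with the filter and -0.03 without it. NDRG1 passed as lower with library totals and in the 3 limma fits. The members were named with this contrast known, so nothing is read from that call. CA9 was 1.65 or 1.51 in limma and 1.07 with the block. HIF1A was 0.48 in limma and 0.62 with the block, and ADM 0.50 and 0.71. With each library left out in turn, genes higher in FT ranged from 1516 to 4215 and genes lower from 1531 to 4337; the number passed ranged from 4 to 9 for oxygen sensing, 5 to 17 for glycolytic targets, 0 to 7 for secreted and vascular targets, 3 to 6 for collagen-modifying targets, 4 to 8 for mitochondrial targets, 2 to 10 for other targets, 4 to 16 for paralogs and 0 to 4 for receptors, and the members' median log2 fold change from 0.42 to 1.25. That median was 0.68 in limma on log2(FPKM + 1), with or without the filter, and 0.69 with a pseudocount of 0.1. Limma without a filter gave 1744 genes higher in FT. An unadjusted p under 0.05 with an absolute log2 fold change over 1 gave 1378 higher and 1208 lower, with 2 oxygen sensing genes, 4 glycolytic, 1 collagen-modifying, 0 other targets and 4 paralogs. Secreted targets passed at 1 in each limma fit, and receptors at 0 in each limma fit and 2 in DESeq2. With replicate number as a block, 1838 genes were higher and 1741 lower, with 0 secreted and 3 other targets passed, a secreted median of -0.20, and the calls of CUL2, RBX1, LEP, STC2, CXCL12, HIGD1A on chromosome 24, TFRC, HMOX1, BHLHE40, WSB1, CA11 and SLC2A13 lost. Deviations of FT and WT libraries from their group means correlated at -0.03 to 0.03. In FT these deviations mostly set FT_1 against FT_2 and FT_3, so they cannot show whether the numbers pair the fetuses. The cause of the differences between fits was not tested. Limits: each group holds 3 fetuses; with FT_1 left out, 2 FT libraries remain. CA9 in FT_2 and FT_3 rests on 17 and 10 counts. RNA levels do not show HIF protein, no oxygen level was compared, and the table's build is not named.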

Other observations

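Some genes outside the naming rule were chosen after their values were seen. VEGFB, a VEGF ligand linked to lipid handling, was at 13.24, 39.05 and 42.96 FPKM in FT_1, FT_2 and FT_3 and at 16.90, 14.48 and 13.20 in WT_1, WT_2 and WT_3. FT_2 and FT_3 were high and FT_1 was within the WT range, as for LEP, while for ADM FT_1 was below it. CITED2, which competes with HIF for its coactivators, was at 52.42, 91.69 and 89.12 FPKM in FT_1, FT_2 and FT_3 and at 55.56, 56.24 and 61.78 in WT_1, WT_2 and WT_3. Here FT_1 was the lowest library.

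The opposite order, with FT_2 and FT_3 below every WT library and FT_1 near or above WT, was seen for DDIT4, an inhibitor of mTOR signalling, at 88.64, 12.07 and 15.71 FPKM in FT_1, FT_2 and FT_3 and 72.18, 73.12 and 85.26 in WT_1, WT_2 and WT_3. CA13, a cytosolic carbonic anhydrase, was at 23.97, 0.29 and 0.26 FPKM in FT_1, FT_2 and FT_3 and at 4.49, 3.25 and 4.68 in WT_1, WT_2 and WT_3. EDN1, the vasoconstrictor endothelin, was at 6.34, 0.09 and 0.05 FPKM in FT_1, FT_2 and FT_3 and at 0.27, 0.45 and 0.34 in WT_1, WT_2 and WT_3. ANGPTL4, a lipase inhibitor, was at 19.83, 4.37 and 4.6 FPKM in FT_1, FT_2 and FT_3 and at 20.87, 17.33 and 18.88 in WT_1, WT_2 and WT_3. Without FT_1 the log2 fold changes were -2.29 for DDIT4, -3.72 for CA13, -2.08 for EDN1 and -1.91 for ANGPTL4. PDGFB, a growth factor chain, was instead at 8.03 FPKM in FT_1, at most 0.06 in FT_2 and FT_3, and listed at 0 in all WT libraries. These genes did not pass with all 6 libraries or were not tested, and FT_1 differed from FT_2 and FT_3 in each.

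FN1, which encodes fibronectin and was on the fibroblast marker list, was at 7499.22, 1779.76 and 1830.53 FPKM in FT_1, FT_2 and FT_3 and at 284.28, 239.10 and 304.22 in WT_1, WT_2 and WT_3. The groups did not overlap, and FT_1 was the highest.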
